A study of Mus musculus with 20 samples.

Results

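Transcript levels of 7 cholesterol synthesis genes, Hmgcs1, Idi1, Fdft1, Sqle, Lss, Cyp51 and Dhcr7, were followed in mouse brain after lipopolysaccharide (LPS) or nicotine. The 7 genes were chosen by symbol, and all 7 were found and passed the filter on low counts in both tissues, among 55487 rows of the prefrontal cortex table and 57180 rows of the hippocampal table. The mice were wild-type C57/BL6, an inbred laboratory strain, aged 2 to 6 months. Prefrontal cortex (PFC) came from males killed 24 hours after intraperitoneal LPS at 5 mg/kg (n = 4) or after 0.9% saline (n = 4), LPS being a bacterial endotoxin that sets off inflammation throughout the body. Hippocampus (HPC) was dissected 24 hours after nicotine at 0.2 mg/kg (n = 6), an agonist of nicotinic acetylcholine receptors, or after 0.9% saline (n = 6). The labels give neither the route of nicotine nor the sex of the hippocampal animals. RNA was measured by poly(A)-selected sequencing as counts per gene, and levels are given as CPM (counts scaled to library size) after TMM normalization, which adjusts library totals for composition.

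For 4 of the 8 prefrontal cortex libraries the records contradict themselves, since the title and treatment field name the opposite treatment from the column name in the count table. Samples 2L and 4L are titled as saline with an LPS column, and Samples 6L and 8L are titled as LPS with a saline column. Column names set the groups here, and the edgeR fit was repeated on the 4 libraries whose labels agree and with the groups set by title. These repeats give fold changes and calls of single genes, and not the ranges, sums, ratios, list medians or correlations below. Library totals were 39871000 to 42924749 counts with LPS and 36371084 to 46106526 with saline in prefrontal cortex, and 53145736 to 62982229 with nicotine and 51969343 to 68196280 with saline in hippocampus. Markers of striatum, summed over 10 genes, ranged from 467 to 1978 CPM among LPS libraries and from 365 to 1549 CPM among saline libraries of the cortex. In hippocampus Ttr, the defining choroid plexus transcript, exceeded 1000 CPM in Samples 10N and 11N with nicotine and in Samples 2N and 5N with saline.

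Cholesterol is made from acetyl-CoA through the mevalonate pathway. Hmgcs1 makes HMG-CoA, the precursor of mevalonate, and Idi1 isomerises the isoprenoid unit from which longer chains are built. Fdft1 (squalene synthase) joins a pair of farnesyl chains into squalene and so commits the flux to sterols, Sqle (squalene epoxidase) oxidises squalene, and Lss (lanosterol synthase) closes the sterol rings. Cyp51 removes a methyl group from lanosterol, and Dhcr7 carries out one of the last reductions. The transcription factor SREBP2, encoded by Srebf2, activates these genes when sterols in the endoplasmic reticulum are low. The brain makes nearly all of its own cholesterol behind the blood-brain barrier, oligodendrocytes use it for myelin, and astrocytes export it to neurons.

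SREBP2 binds sterol regulatory elements near the transcription start and is known to act together with NF-Y, which binds CCAAT boxes, and Sp1, which binds GC boxes. The 250 bases upstream of the RefSeq start (build GRCm38.p6, to which mm10 belongs) are shown for the 5 members with an entry, because these genes did not move in 1 direction after LPS. Each is on the strand of its gene, 5′ to 3′. Capitals mark matches on either strand to TCACNCCAC (an element like that of sterol-regulated promoters), CCAAT, and GGGCGG.
Hmgcs1, chr13:119690101-119690350 (plus strand): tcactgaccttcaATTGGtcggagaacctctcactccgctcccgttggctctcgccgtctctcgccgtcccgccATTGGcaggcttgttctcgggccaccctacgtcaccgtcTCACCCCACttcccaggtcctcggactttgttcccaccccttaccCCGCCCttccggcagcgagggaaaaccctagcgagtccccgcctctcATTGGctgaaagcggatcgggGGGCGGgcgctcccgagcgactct
Idi1, chr13:8885356-8885605 (plus strand): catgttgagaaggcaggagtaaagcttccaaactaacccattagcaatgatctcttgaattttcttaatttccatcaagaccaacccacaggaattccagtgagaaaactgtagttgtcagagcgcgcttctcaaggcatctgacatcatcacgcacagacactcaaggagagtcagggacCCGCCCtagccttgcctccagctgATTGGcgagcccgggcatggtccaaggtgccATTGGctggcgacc
Lss, chr10:76531355-76531604 (plus strand): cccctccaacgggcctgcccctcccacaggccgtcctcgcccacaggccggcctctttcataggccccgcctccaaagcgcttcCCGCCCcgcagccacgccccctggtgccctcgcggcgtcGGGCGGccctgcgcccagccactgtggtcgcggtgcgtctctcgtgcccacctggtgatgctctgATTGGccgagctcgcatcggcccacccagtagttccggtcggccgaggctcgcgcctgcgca
Cyp51, chr5:4104698-4104947 (minus strand): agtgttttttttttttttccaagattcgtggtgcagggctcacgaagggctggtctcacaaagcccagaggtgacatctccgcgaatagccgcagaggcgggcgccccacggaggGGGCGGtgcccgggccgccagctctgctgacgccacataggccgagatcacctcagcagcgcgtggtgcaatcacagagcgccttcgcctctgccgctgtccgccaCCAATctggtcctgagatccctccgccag
Dhcr7, chr7:143822917-143823166 (plus strand): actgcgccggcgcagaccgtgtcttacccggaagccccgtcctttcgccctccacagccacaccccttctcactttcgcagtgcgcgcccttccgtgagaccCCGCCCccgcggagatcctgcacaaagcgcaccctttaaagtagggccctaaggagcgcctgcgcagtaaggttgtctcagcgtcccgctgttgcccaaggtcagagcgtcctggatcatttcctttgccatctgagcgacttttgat
Fdft1 and Sqle are named only. Dhcr7 has 3 windows in the RefSeq table, of which the one at the most upstream start is shown. TCACNCCAC was matched in Hmgcs1 alone, at bases -137 to -129 from the start, and 1.05% of 32851 RefSeq windows of this length held it. Beyond the looser pattern below, sterol elements of other sequence were not searched for. A window without a match may still hold one. CCAAT was matched in 4 of the 5 windows, against 33.8% of all windows, and GGGCGG in 5 of 5, against 32.7%. Of 11 other genes of the pathway with a window, 10 held CCAAT and 10 held GGGCGG, so neither was particular to the members. The background takes in every RefSeq window, while each gene here has 1 window. Hmgcs1 held 3 CCAAT boxes and 2 GC boxes, Idi1 held 2 and 1, and Cyp51 held 1 of each, while Dhcr7 held a GC box and no CCAAT box; these 4 genes fell after LPS. Lss, which rose, held 1 CCAAT box and 2 GC boxes, as many CCAAT boxes as Cyp51 and as many GC boxes as Hmgcs1. Motif counts were not tested against the direction of change, and Fdft1 and Sqle had no window. A looser pattern, TCACNNCAC, which takes in every TCACNCCAC match, was found in 3.11% of windows and, among 11 other genes of the pathway with a window, in Msmo1 and Hsd17b7. These matches are letters in a window and not measured binding.

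**Figure D1:**
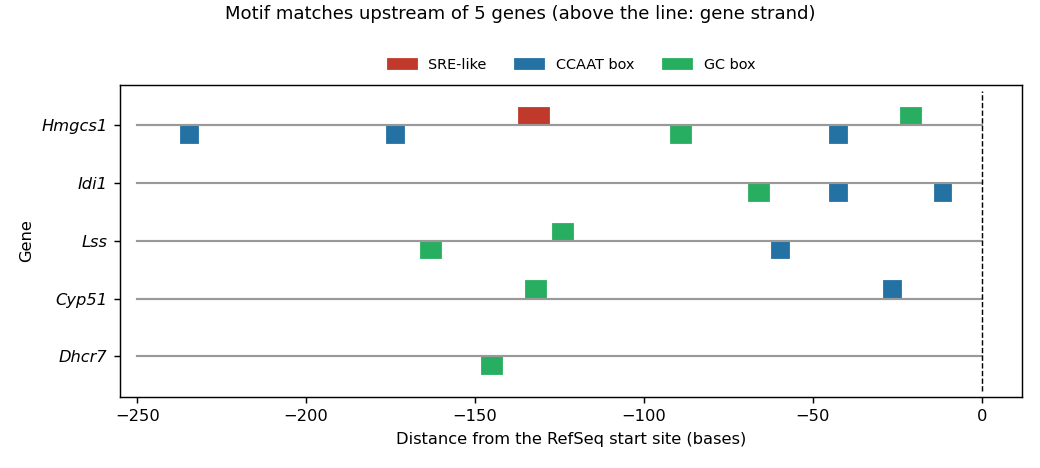
Positions of motif matches in the 250 bases upstream of 5 genes, with distance from the RefSeq start in bases on the horizontal axis and 1 line per gene; boxes above a line lie on the strand of the gene and boxes below it on the other strand. The pattern TCACNCCAC appears in Hmgcs1 alone. Hmgcs1, Idi1, Lss and Cyp51 each have at least 1 CCAAT match that begins at base -62 or nearer to the start.

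In prefrontal cortex the pathway did not move as a block after LPS. Hmgcs1, Idi1, Sqle, Cyp51 and Dhcr7 fell, while Fdft1 and Lss rose. Sqle and Lss catalyse consecutive steps and moved furthest, to 0.592-fold and 1.77-fold of saline. All 7 members passed the edgeR quasi-likelihood test at an adjusted p under 0.05, 2 higher and 5 lower, where 41.2% of the 17760 genes tested passed, 21.5% higher and 19.7% lower. The members, and the gene lists below, were chosen with earlier results of these data known. Their counts beside such shares are a description and not a test. Before adjustment 49.6% of genes had a p under 0.05, 25.7% higher and 23.9% lower. The median log2 fold change of the members was -0.48, against 0.01 over all genes tested. In bulk tissue, fewer cells of a type and less RNA per cell cannot be told apart.

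Hmgcs1 encodes the enzyme at the entry to the mevalonate pathway (13:119690379-119708260, plus strand, mm10, GENCODE vM21). It measured 169, 201, 210.1 and 195 CPM in the LPS Samples 2L, 4L, 5L and 7L, against 264, 299, 219 and 264 CPM in the saline Samples 1L, 3L, 6L and 8L. Every LPS library lay below every saline library, though the highest LPS value and the lowest saline value were close. The means were 193.9 ± 17.5 CPM with LPS and 261 ± 32.7 CPM with saline (SD, n = 4 each), and the log2 fold change was -0.43 (SE 0.098, edgeR adjusted p = 0.00464).

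Idi1, the isomerase of the isoprenoid unit (13:8885501-8892451, plus strand), was the least abundant member. Its counts were lowest of the members, yet no cortex library had fewer than 256. It reached 6.14, 8.56, 7.84 and 8.5 CPM in the LPS libraries, in the order of Samples 2L, 4L, 5L and 7L, against 10.5, 12.2, 9.28 and 11.2 CPM in the saline libraries, in the order of Samples 1L, 3L, 6L and 8L, the order kept below. The groups did not overlap. Idi1 fell by 0.48 on the log2 scale (SE 0.140, edgeR adjusted p = 0.0176), with means of 7.76 ± 1.13 CPM with LPS and 10.8 ± 1.24 CPM with saline (SD, n = 4 each).

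Fdft1, which makes squalene (14:63145150-63179578, minus strand), moved the other way. It stood at 104, 122, 121 and 113 CPM with LPS, against 90.9, 93.5, 82.7 and 106 CPM with saline. The ranges overlapped, since LPS Sample 2L lay under saline Sample 8L. Fdft1 averaged 115 ± 8.43 CPM with LPS and 93.2 ± 9.53 CPM with saline (SD, n = 4 each), a log2 fold change of 0.30 (SE 0.086, edgeR adjusted p = 0.0149). The call was lost without LPS Sample 4L (edgeR adjusted p = 0.059) or without LPS Sample 5L (adjusted p = 0.0531). The gene shares 774 of its 4227 exonic bases with Ctsb, the lysosomal protease cathepsin B, on the opposite strand, and the strand setting of the counting is not given in the sources used here. Ctsb itself rose, with 627 to 678 CPM in LPS libraries and 527 to 563 CPM in saline libraries (log2 fold change 0.28, edgeR adjusted p = 0.00303), and its part in the Fdft1 value was not tested.

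Sqle, the epoxidase that is known as a control point of the sterol branch (15:59315077-59331192, plus strand), showed the largest fall among the 7. It gave 32.6, 38.4, 37.4 and 33.9 CPM with LPS, against 64.0, 59.3, 55.4 and 61.9 CPM with saline. The gap between the groups, with 38.4 CPM as the highest LPS value and 55.4 CPM as the lowest saline value, was wider than the range within either. Means were 35.6 ± 2.76 CPM with LPS and 60.2 ± 3.70 CPM with saline (SD, n = 4 each). The fold was 0.592 (95% confidence interval 0.523 to 0.670), and the log2 fold change -0.76 (SE 0.082, edgeR adjusted p = 5.18e-05).

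Lss, the cyclase that follows Sqle (10:76531588-76557138, plus strand), showed the largest rise. It measured 47.2, 56.5, 52.5 and 53.1 CPM with LPS, against 30.2, 27.8, 26.2 and 34.0 CPM with saline. No LPS library came near the saline libraries. Lss averaged 52.3 ± 3.83 CPM with LPS and 29.5 ± 3.40 CPM with saline (SD, n = 4 each), a fold of 1.77 (95% confidence interval 1.53 to 2.05) and a log2 fold change of 0.82 (SE 0.097, edgeR adjusted p = 8.99e-05). It overlaps the antisense gene 4930483K19Rik over 381 exonic bases, and that gene was itself barely counted. On the opposite strand, Hmgcs1 shares 557 exonic bases with Gm48342 and Idi1 shares 323 with Gm48574, genes also barely counted in cortex.

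Cyp51, the lanosterol demethylase (5:4081145-4104746, minus strand), had 38.3, 39.1, 45.5 and 32.2 CPM with LPS, against 61.1, 62.1, 64.7 and 63.3 CPM with saline. The saline libraries lay close together and the LPS libraries were spread below them. The mean was 38.8 ± 5.43 CPM with LPS and 62.8 ± 1.53 CPM with saline (SD, n = 4 each), and the log2 fold change -0.70 (SE 0.096, edgeR adjusted p = 2.46e-04). Cyp51 shares 166 exonic bases with Akap9 on the other strand. Akap9 had 82.3 to 141.9 CPM with LPS and 93.8 to 136.6 CPM with saline, and its part in the Cyp51 value was not tested.

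Dhcr7, which reduces 7-dehydrocholesterol to cholesterol (7:143823145-143848410, plus strand), followed Cyp51. It had 21.1, 22.1, 24.5 and 19.5 CPM with LPS, against 29.2, 30.8, 31.4 and 30.5 CPM with saline, again with tight saline values and no overlap. It averaged 21.8 ± 2.11 CPM with LPS and 30.4 ± 0.917 CPM with saline (SD, n = 4 each), a log2 fold change of -0.48 (SE 0.091, edgeR adjusted p = 0.00165). In all, 6 of the 7 members had ranges that did not overlap, 1 higher and 5 lower, where 37.1% of all genes tested had such ranges, 19.2% higher and 17.9% lower. This count too is a description, since the members were chosen with earlier results known. Within the 4 libraries whose labels agree, all 7 members again passed in the same directions, with Sqle at -0.80 and Lss at 0.86 (log2, edgeR adjusted p = 0.000971 and 0.000709), 2 libraries against 2. Of the other genes named for cortex, the calls of Mvk, Fdps, Nsdhl, Lbr, March6, Npc2, Cyp46a1, Pdss1, Nus1, Ctsb, Camk2a, Map2, Gad1, Cldn5, C1qa and Ptprc were lost in that smaller set (edgeR adjusted p = 0.0563 to 0.455), each with the same sign, and Srebf1 passed at 0.44 (adjusted p = 0.0296). With the groups set by title, no gene of the table passed, the members included.

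**Figure D2:**
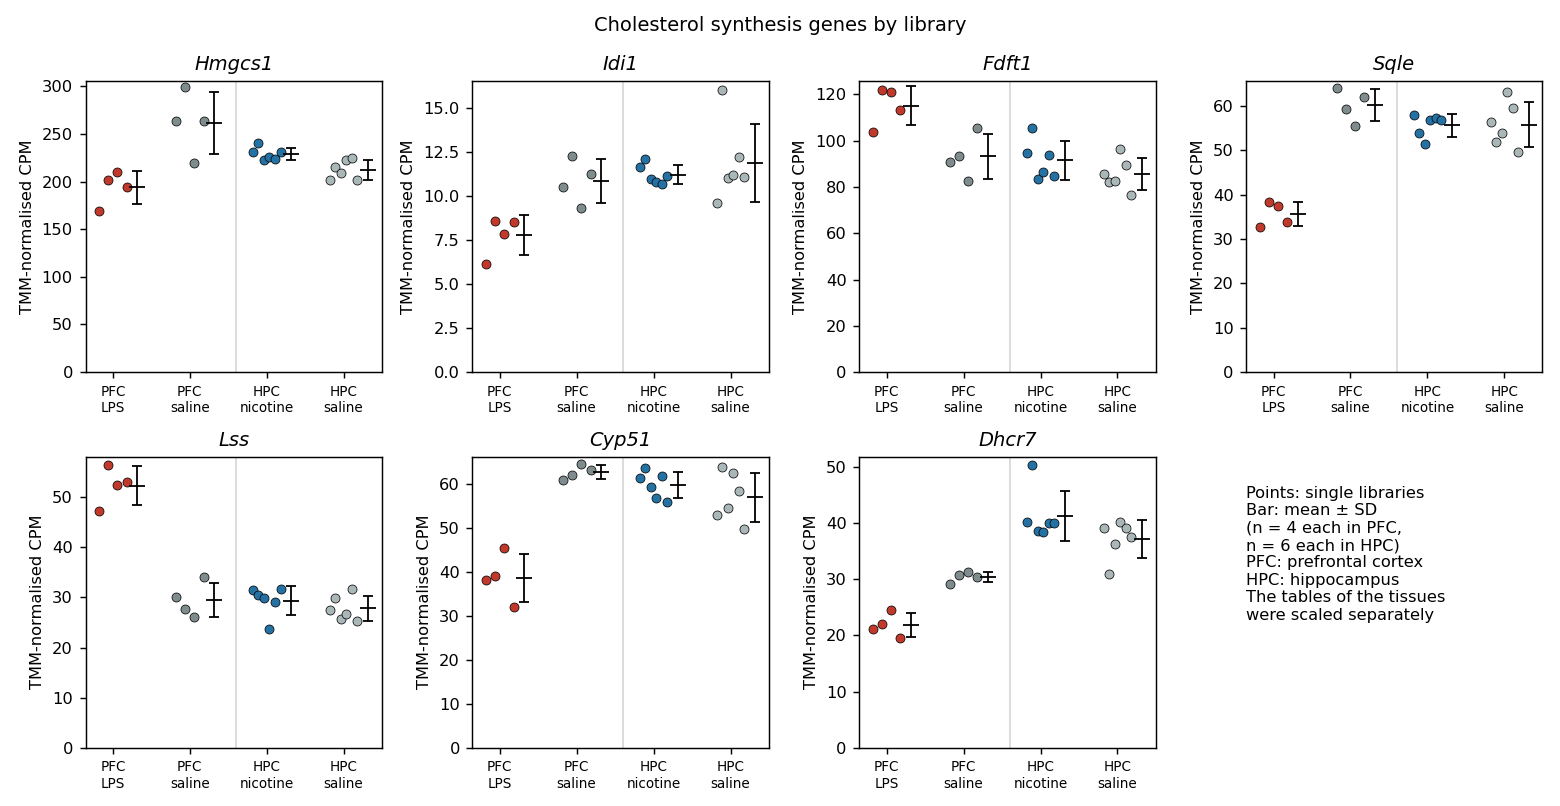
TMM-normalised CPM of the 7 genes (vertical axes, each from 0) in the single libraries of the 4 groups, with the mean ± SD beside the points (n = 4 each in PFC, n = 6 each in HPC). Lss and Fdft1 are higher and the other 5 genes lower with LPS, Sqle separating at 38.4 CPM against 55.4 CPM, while nicotine and saline libraries of the hippocampus overlap for every gene.

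Ratios of counts within a library do not depend on scaling between libraries, so the split between neighbouring steps was also read that way. These ratios were chosen after the values were seen and carry no test. Lss over Sqle had to separate the treatments, since the CPM ranges of both genes were apart in opposite directions. For each Sqle count, LPS libraries had 1.4 to 1.57 Lss counts, against 0.469 to 0.549 in saline libraries. Fdft1 gave 3.17 to 3.34 counts per Sqle count with LPS, against 1.42 to 1.71 with saline. Lss over Sqle and Fdft1 over Sqle thus separated the treatments fully, with little spread among LPS libraries. Hmgcs1 over Sqle, a ratio of genes that both fell, also separated them, at 5.19 to 5.74 with LPS and 3.95 to 5.04 with saline. Separation was therefore not limited to ratios with a gene that rose. Cyp51 over Sqle, by comparison, spanned 0.949 to 1.21 with LPS and 0.955 to 1.17 with saline, so that pair kept its proportion within the spread. In hippocampus, Lss over Sqle was 0.419 to 0.584 with nicotine and 0.423 to 0.574 with saline, and both ranges took in that of saline cortex.

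**Figure D3:**
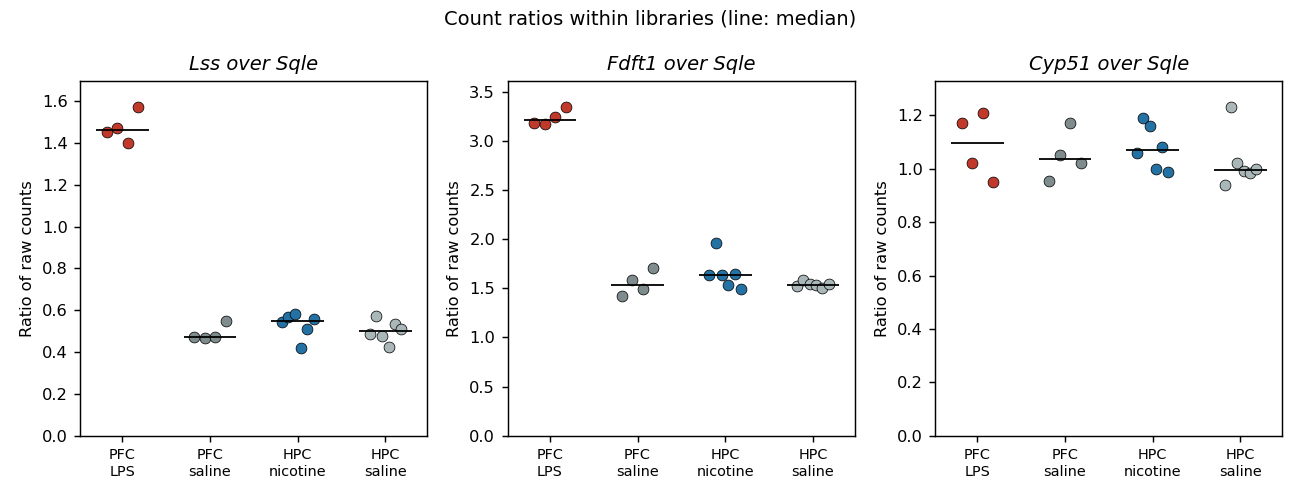
Ratio of raw counts of Lss, Fdft1 and Cyp51 to Sqle in each library (vertical axes from 0), by group, with the group median as a line. The LPS libraries stand apart for Lss (1.4 to 1.57, against 0.469 to 0.549 with saline) and Fdft1, and overlap saline for Cyp51.

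Levels between genes were compared as CPM per kilobase, using the length of the principal transcript in GENCODE vM21. In LPS cortex the order was Hmgcs1 at 56.0, Fdft1 at 31.1, Sqle at 12.9, Lss at 11.2, Cyp51 at 9.86, Dhcr7 at 7.74 and Idi1 at 2.56 CPM per kilobase. In saline cortex it was Hmgcs1 at 75.5, Fdft1 at 25.2, Sqle at 21.8, Cyp51 at 16.0, Dhcr7 at 10.8, Lss at 6.33 and Idi1 at 3.57 CPM per kilobase. Lss thus had rank 4 in LPS cortex and rank 6 in saline cortex by these lengths. The order depends on the length used, and no other length was tried. Lss has 4667 bases in the principal transcript and 10787 over all exons, against 3027 and 3505 for Idi1. Library ranges of neighbours overlapped for Sqle and Lss, Lss and Cyp51, and Cyp51 and Dhcr7 with LPS, and for Fdft1 and Sqle with saline. Both hippocampal groups kept the order of saline cortex, from Hmgcs1 at 66.2 with nicotine and 61.3 with saline to Idi1 at 3.70 and 3.91 CPM per kilobase. There Cyp51 and Dhcr7 overlapped in both groups, and Fdft1 and Sqle overlapped with saline. Levels across the tissues come from tables scaled apart, and tissue, batch and table cannot be told apart.

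Of another 12 genes of the pathway, 6 were lower and 3 higher after LPS by edgeR, where 19.7% of all genes tested were lower and 21.5% higher, and their median log2 fold change was -0.29. Of these 19 pathway genes together, 11 fell and 5 rose. Between mevalonate and squalene, Pmvk fell by 0.50 and Mvk by 0.29 on the log2 scale (edgeR adjusted p = 0.00112 and 0.0316), both kinases of this stretch of the pathway. The Mvk call was lost without LPS Sample 4L or 5L or saline Sample 1L or 8L (edgeR adjusted p = 0.0662 to 0.1). Mvd, the decarboxylase that follows them, was at -0.29 (edgeR adjusted p = 0.102) and Acat2, which joins acetyl-CoA units at the start, at 0.02 (adjusted p = 0.898). Among the sterol-modifying enzymes, Msmo1 (-0.56), Ebp (-0.65), Sc5d (-0.38) and Nsdhl (-0.32) fell (log2, edgeR adjusted p = 0.00138, 0.00466, 0.00189 and 0.0146). Hsd17b7, a sterol ketone reductase, rose to 22.7 ± 1.30 CPM with LPS, against 16.5 ± 1.49 CPM with saline (SD, n = 4 each; log2 fold change 0.46, edgeR adjusted p = 0.00312). Lbr, which has sterol reductase activity and also anchors chromatin to the nuclear envelope, rose by 0.37 (edgeR adjusted p = 0.0118), and Tm7sf2, which carries the same reductase activity, was at -0.24 (adjusted p = 0.276). Fdps, the farnesyl diphosphate synthase, is uncertain: its counts were 13 to 41 with LPS and 7 to 24 with saline in cortex (0.312 to 1.03 and 0.169 to 0.616 CPM), while the hippocampal table gave 36.4 to 49.6 CPM. Its cortex fold change of 1.37 (log2, edgeR adjusted p = 0.0396) rests on those few counts and was lost without any of 6 of the 8 libraries (adjusted p = 0.0825 to 0.105), and without Fdps the other pathway genes numbered 2 higher and 6 lower of 11.

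**Figure D4:**
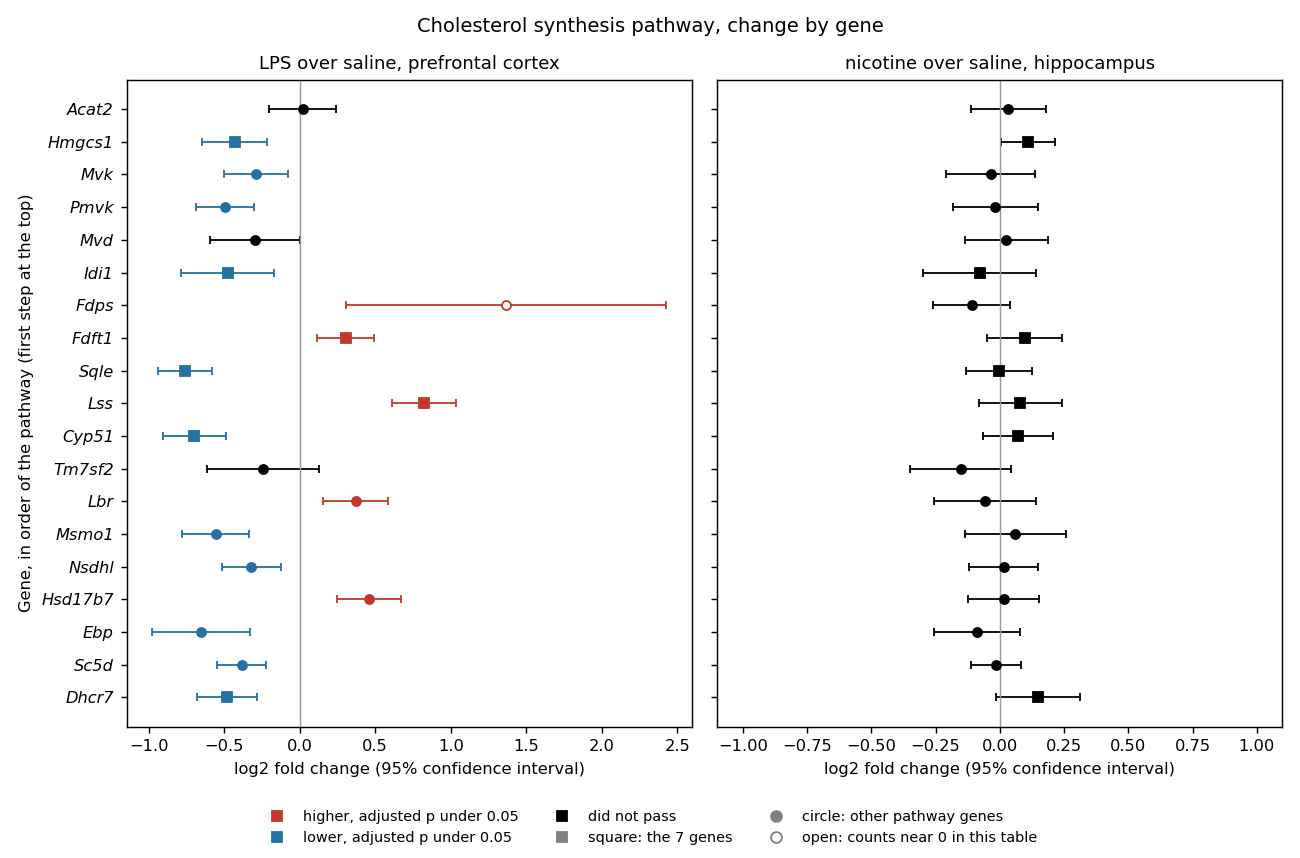
Log2 fold changes with 95% confidence intervals (horizontal axes) of 19 cholesterol synthesis genes, ordered from the start of the pathway at the top to its end, for LPS over saline in prefrontal cortex (left) and nicotine over saline in hippocampus (right); squares are the 7 genes. After LPS 11 genes are lower and 5 higher, with Lss at 0.82 directly under Sqle at -0.76, and after nicotine no gene passes.

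Control of the pathway runs through SREBP2, which Scap escorts to the Golgi for cleavage by the proteases of Mbtps1 and Mbtps2, while Insig1 and Insig2 hold it back. Srebf2 had 170.3, 183, 201 and 209 CPM with LPS, against 315, 240.0, 286 and 281 CPM with saline. It fell in every LPS library relative to every saline library (log2 fold change -0.56, SE 0.093, edgeR adjusted p = 7.74e-04). Insig2 also fell (log2 fold change -0.36, edgeR adjusted p = 0.00847), and Mbtps1 rose, to 119 ± 8.70 CPM with LPS, against 89.4 ± 1.28 CPM with saline (SD, n = 4 each; log2 fold change 0.41, edgeR adjusted p = 7.12e-04). Srebf1, the source of the related SREBP1, did not pass (0.22, edgeR adjusted p = 0.249), nor did Scap (-0.02, adjusted p = 0.841), Insig1 (0.06, adjusted p = 0.719) or Mbtps2 (0.18, adjusted p = 0.16). Of the ubiquitin ligases that act on enzymes of the pathway, March6, known for degrading Sqle protein when sterols are plentiful, rose by 0.24 (log2, edgeR adjusted p = 0.0141). It had 243 to 265 CPM with LPS and 203 to 235 CPM with saline, and its call was lost without LPS Sample 5L (edgeR adjusted p = 0.0518). Rnf145 (0.03, edgeR adjusted p = 0.745) did not pass, and Rnf139 was too low to be tested.

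In neighbouring lipid pathways, of 8 genes for other SREBP2 targets and sterol uptake, 0 were higher and 2 lower (median log2 fold change -0.05). The shares over all genes tested, for this list and the next, were 21.5% higher and 19.7% lower. Stard4, a carrier of sterol between membranes, fell by 0.48 and Npc2, which moves cholesterol out of lysosomes, fell by 0.22 on the log2 scale (edgeR adjusted p = 0.00506 and 0.024). The Npc2 call was lost without LPS Sample 4L (edgeR adjusted p = 0.0673). Of 12 genes of cholesterol export, storage and oxysterol formation, 4 were higher and 6 lower (median -0.30). Lcat, which esterifies cholesterol in lipoproteins, fell by 1.11, Cyp27a1, which makes 27-hydroxycholesterol, by 1.28, and Soat1, which stores cholesterol as ester, by 0.74 (log2, edgeR adjusted p = 4.84e-05, 4.19e-04 and 0.00147). Cyp46a1, the neuronal enzyme that turns cholesterol into the form that leaves the brain, rose to 264 ± 11.0 CPM with LPS, against 208 ± 13.2 CPM with saline (SD, n = 4 each; log2 fold change 0.34, edgeR adjusted p = 0.0019). The 2 largest rises of the list, picked out after its values were seen, were in Ch25h, which makes 25-hydroxycholesterol, and in Abca1, a transporter that exports cholesterol. Ch25h had 7.22 to 9.86 CPM with LPS and 0 to 2.38 CPM with saline (log2 fold change 3.35, edgeR adjusted p = 0.00203), with a fold change of 4.61 without saline Sample 8L, 4.81 by limma-voom and 5.81 in the 4 libraries whose labels agree. Abca1 had 58.4 to 105.5 CPM with LPS and 25.5 to 58.0 CPM with saline (1.19, edgeR adjusted p = 0.00327), and was at 1.85 in those 4 libraries.

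Fatty acid synthesis, which SREBP1 controls, had 4 of 11 genes lower and 0 higher (median -0.16). For this list and the next, the shares over all genes tested were 19.7% lower and 21.5% higher. Elovl6, an elongase, had 35.2 to 37.1 CPM with LPS and 58.3 to 72.2 CPM with saline, a fall of 0.91 on the log2 scale (edgeR adjusted p = 1.38e-05). Me1, which supplies NADPH, and the desaturase Fads2 fell by 0.68 and 0.62 (edgeR adjusted p = 1.49e-04 and 2.96e-04). Acaca, the carboxylase at the start, was at -0.29 (edgeR adjusted p = 0.0237), a call lost without saline Sample 1L or 8L or LPS Sample 4L, 5L or 7L (adjusted p = 0.0509 to 0.0675). The branch that uses farnesyl and geranyl units for dolichol, ubiquinone and protein prenylation had 2 of 11 genes higher and 0 lower (median 0.12). They were Pdss1, which builds the ubiquinone tail (0.48, edgeR adjusted p = 0.0177), and Nus1, a dolichol synthase subunit (0.29, adjusted p = 0.0336). The Pdss1 call was lost without saline Sample 1L or LPS Sample 4L or 5L (edgeR adjusted p = 0.0535 to 0.0665), and the Nus1 call without those libraries or saline Sample 8L (adjusted p = 0.0807 to 0.122).

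The oligodendrocyte, precursor and microglial lists each had more markers lower than higher after LPS. Over all genes tested, edgeR called 19.7% lower and 21.5% higher. Of 12 oligodendrocyte markers 7 were lower and 0 higher after LPS, with a median log2 fold change of -0.84. Ugt8a, which makes the myelin lipid galactosylceramide, had 6.73 to 10.1 CPM with LPS and 25.3 to 38.5 CPM with saline (log2 fold change -2.0), and Gjb1 (-1.99), Aspa (-1.58) and Cnp (-0.71) fell as well (edgeR adjusted p = 6.61e-06 for Ugt8a, 1.01e-04 for Gjb1, 7.47e-04 for Aspa and 3.42e-04 for Cnp). Mbp, the defining myelin transcript, had 1417 to 1857 CPM with LPS and 1346 to 2029 CPM with saline (-0.03, edgeR adjusted p = 0.873), and the sum over the 12 markers was 2632 to 3574 CPM with LPS and 2997 to 4024 CPM with saline. Of 8 precursor markers 6 were lower and 1 higher. Gpr17, of newly committed oligodendrocytes, fell by 2.32 and the lineage factors Sox10 and Olig1 by 0.88 and 1.02 (log2, edgeR adjusted p = 1.77e-04, 8.19e-05 and 4.44e-04), while Pdgfra, the defining precursor gene, rose by 0.47 (adjusted p = 9.9e-04), and the summed level was 350.0 to 423 CPM with LPS and 507 to 588 CPM with saline. Of 7 microglial markers 3 were lower and 1 higher, with P2ry12 at -2.45, Sall1 at -1.01, Tmem119 at -0.91 and C1qa at 0.55 (log2, edgeR adjusted p = 3.58e-07, 0.00159, 9.44e-04 and 0.00708), and the sum was 249 to 339 CPM with LPS and 345 to 380 CPM with saline.

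Astrocyte markers were 3 higher and 3 lower of 10, with Gfap at 1.33, Fgfr3 at 0.47, Aldh1l1 at 0.34, Gja1 at -0.52 and Ntsr2 at -0.59 (log2, edgeR adjusted p = 7.32e-06, 6.62e-04, 0.00303, 1.49e-04 and 2.54e-04), and their sum was 4866 to 5816 CPM with LPS and 5097 to 5371 CPM with saline. Neuronal markers were 3 higher and 2 lower of 10, with Rbfox3 at 0.44, Camk2a at 0.28, Map2 at -0.18 and Gad1 at -0.62 (log2, edgeR adjusted p = 3.12e-04, 0.0207, 0.0226 and 0.0229), and their sum was 13510 to 14700 CPM with LPS and 11770 to 13650 CPM with saline. Endothelial markers were 3 higher and 3 lower of 8, with Cdh5 at 1.34, Cldn5 at 0.39, Abcb1a at -1.25, Tek at -1.44 and Slco1c1 at -1.95 (log2, edgeR adjusted p = 2.56e-04, 0.0177, 0.00225, 0.00195 and 7.07e-07), and their sum was 209 to 243 CPM with LPS and 208 to 232 CPM with saline. Leukocyte markers were 2 higher and 0 lower of 3 tested (median 0.75), with S100a8 at 1.83 and Ptprc at 0.75 (log2, edgeR adjusted p = 8.17e-04 and 0.0058), and their sums did not overlap, at 7.81 to 11.7 CPM with LPS and 3.46 to 6.23 CPM with saline. Striatum markers were 0 of 10 called by edgeR, all 10 of them with a positive log2 fold change (median 0.50), with 1 at an unadjusted p under 0.05, Ppp1r1b (1.14, adjusted p = 0.0553), and Drd1 at 0.52 (adjusted p = 0.53). Choroid plexus markers were 1 higher of 7 tested, Kcne2 (0.288 to 1.22 CPM with LPS and 0 to 0.0539 CPM with saline), with Ttr at -0.32 (edgeR adjusted p = 0.636) and sums of 6.71 to 12.7 CPM with LPS and 5.62 to 13.2 CPM with saline. Calls were lost for Camk2a without Sample 2L, 3L, 4L or 6L (edgeR adjusted p = 0.0504 to 0.0616), for Gad1 without Sample 4L or 6L (0.0636 and 0.0646) and for Cldn5 without Sample 6L, 7L or 8L (0.0527 to 0.0555), while Ppp1r1b passed without Sample 6L or 7L (0.018 and 0.011). Beside these marker counts, the shares over all genes tested were 21.5% higher and 19.7% lower. The part of cell makeup in the member values was not tested.

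**Figure D5:**
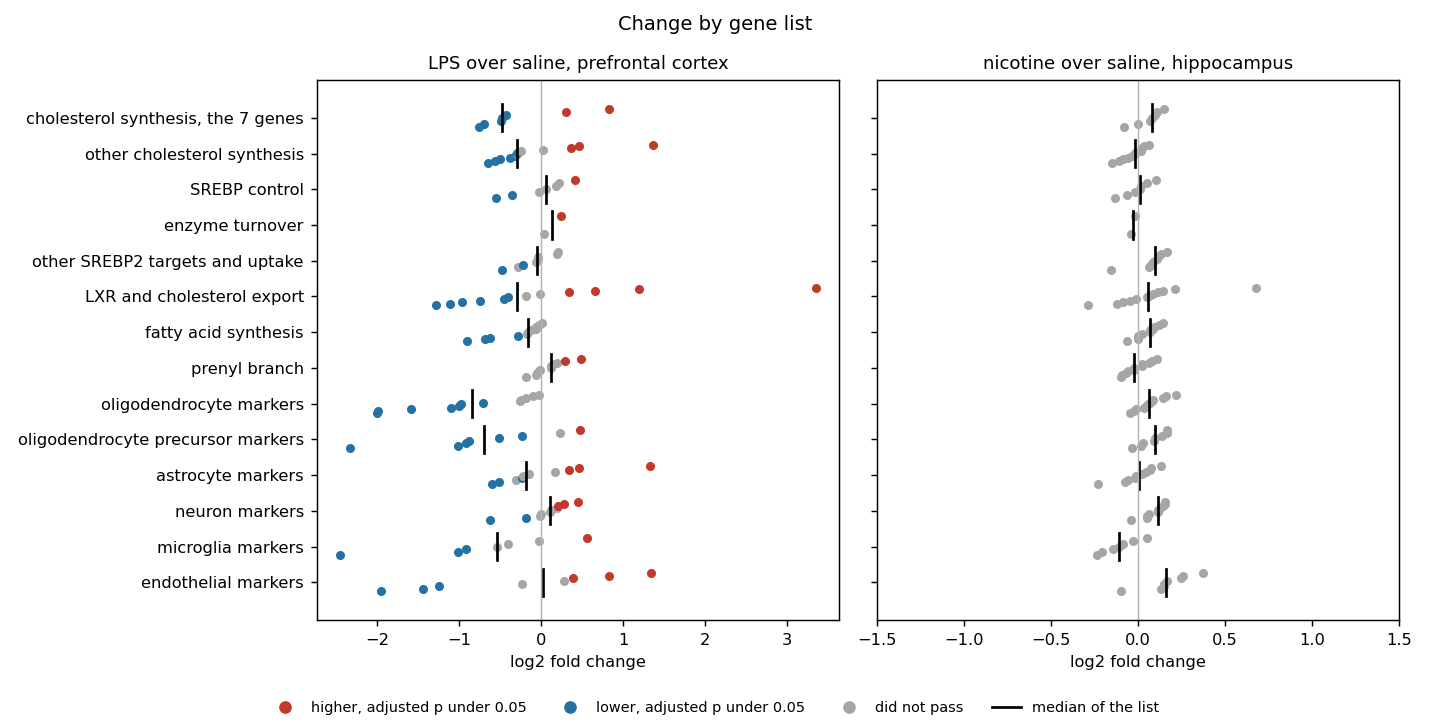
Log2 fold changes (horizontal axes) of single genes in 14 lists, for LPS over saline in prefrontal cortex (left) and nicotine over saline in hippocampus (right), with genes past an adjusted p of 0.05 in colour and list medians as bars. The 7 genes have a median of -0.48 after LPS and oligodendrocyte markers one of -0.84, while after nicotine no listed gene passes.

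In hippocampus no member changed detectably 24 hours after nicotine. By edgeR, 0 of 7 passed, where 0% of 18873 genes passed and 8.36% had an unadjusted p under 0.05, 3.89% higher and 4.46% lower. By limma-voom 0 genes passed and by DESeq2 15, none of them a member. The log2 fold changes ran from -0.08 for Idi1 to 0.15 for Dhcr7, with 5 positive and 2 negative and a median of 0.08, against 0.003 over all genes tested. Their 95% confidence intervals lay between -0.30 and 0.31, so changes of the size of Sqle or Lss after LPS would lie outside them.

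Hmgcs1 was lowest at 223, with a median of 228 and a highest value of 240.7 CPM with nicotine, and had 201, 212 and 225 CPM as the same values with saline. It was the 1 member with an unadjusted p under 0.05 (log2 fold change 0.11, edgeR adjusted p = 0.585), and its groups overlapped between 223 and 225 CPM. Dhcr7 had 38.4, 40 and 50.3 CPM as lowest, median and highest with nicotine and 31.0, 38.3 and 40.2 CPM with saline, and its highest value came from Sample 8N alone. Sqle was at 51.3, 56.8 and 58.0 CPM with nicotine and 49.6, 55.1 and 63.1 CPM with saline, a log2 fold change of -0.002. Lss gave 23.8, 30.2 and 31.8 CPM with nicotine and 25.4, 27.1 and 31.7 CPM with saline. Fdft1 gave 83.6, 90.2 and 106 CPM with nicotine and 76.5, 84.1 and 96.5 CPM with saline. By edgeR, Lss was at 0.08 (adjusted p = 0.773), and at 0.23 (adjusted p = 0.164) without the libraries above 1000 CPM of Ttr. Cyp51 (56.1, 60.5 and 63.7 CPM with nicotine, 49.8, 56.6 and 64.0 CPM with saline) and Idi1 (10.7, 11.0 and 12.1 CPM with nicotine, 9.57, 11.1 and 16.0 CPM with saline) overlapped too, and ranges were apart for 0 of 7 members, where 0.387% of all genes had ranges apart, 0.17% higher and 0.217% lower. The responses to LPS and nicotine were not tested against each other, since tissue and table differ.

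Across the wider pathway 0 of 12 other synthesis genes passed after nicotine by edgeR, with 0 at an unadjusted p under 0.05 and values from -0.15 for Tm7sf2 to 0.06 for Msmo1. Srebf2 averaged 223 ± 6.54 CPM with nicotine and 207 ± 16.1 CPM with saline (SD, n = 6 each). Insig2 had the smallest p among the SREBP control genes (log2 fold change -0.13, edgeR adjusted p = 0.565). Cyp7b1, which hydroxylates oxysterols, had the smallest p of the export list, at 21.2 ± 1.67 CPM with nicotine and 25.9 ± 2.65 CPM with saline (SD, n = 6 each; log2 fold change -0.29, edgeR adjusted p = 0.555). Of the other lists 0 genes passed, and their smallest p belonged to Npc1 (0.11), Acaca (0.12), Rabggtb (-0.10), Opalin (0.22), Cspg4 (0.14), Slc1a2 (0.13), Gad2 (0.15), Tmem119 (-0.20), Cdh5 (0.37), Kl (-0.43), Rgs9 (0.14) and S100a9 (0.58), on the log2 scale with edgeR adjusted p = 0.555 to 0.835. Summed oligodendrocyte markers were 4994 to 6464 CPM with nicotine and 2595 to 8267 CPM with saline, where Sample 4N gave the lowest and Sample 2N the highest value and the other 4 libraries lay at 4562 to 5778 CPM.

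Deviations of log2 CPM from the group mean, which leave out the treatment, were positively correlated for 17 of 21 member pairs in cortex (median r 0.49, 8 libraries) and for 19 of 21 in hippocampus (median r 0.44, 12 libraries), with r above 0.5 for 10 and 7 of them. No background over other gene pairs was computed. Cyp51 and Dhcr7 were closest in cortex (r = 0.97), followed by Fdft1 and Lss (r = 0.90), the pair that rose. Sqle, which fell, had r of 0.76 with Fdft1 and 0.75 with Lss there. With the genes that also fell, Sqle had 0.67 (Hmgcs1), 0.58 (Idi1), 0.35 (Cyp51) and 0.33 (Dhcr7). With the other 5 members, Cyp51 and Dhcr7 had r of -0.20 to 0.35 in cortex. Idi1 and Cyp51 were farthest apart in cortex (r = -0.20), and Idi1 and Dhcr7 in hippocampus (r = -0.38). The genes whose deviations were most like the mean of the 7 members were Acsl1, Tbc1d12, Gda, Casc4 and Birc3 in cortex (r = 0.95 to 0.96 over 8 libraries) and Znrf1, Marcks, Mvd, Cdk20 and Nsdhl in hippocampus (r = 0.88 to 0.90 over 12 libraries). They were the top of 14649 genes compared in cortex and 14887 in hippocampus. Such a search alone can yield a high r over few libraries. Mvd and Nsdhl are themselves in the pathway list. With the member mean, the other synthesis genes except Fdps had r of -0.81 (Ebp) to 0.85 (Msmo1) in cortex. In hippocampus all of them, Fdps included, had r of 0.16 (Lbr) to 0.88 (Mvd). Points of such a correlation share the library and its scaling, and the values are a description.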

How the data were processed

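Poly(A)-selected RNA of 8 prefrontal cortex (batch 1) and 12 hippocampal samples (batch 2) was sequenced after TRIzol harvest, per the labels. The deposited values are the authors' raw counts for each gene, in 1 table per tissue, with no normalization. Tools listed are fastp, STAR, featureCounts and DESeq2, and the build is mm10, per the submitters' processing notes, which give no roles. Annotation and strandedness of the counting were not stated in the sources used here, so reads of overlapping or near-identical genes could be split. All 20 columns belong to the libraries described. Of 57180 hippocampal Ensembl IDs, 51884 matched GENCODE vM21.

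Separate edgeR 4.0.16 fits were made for cortex and hippocampus under R 4.3.3 (TMM factors, filterByExpr, quasi-likelihood F-test, Benjamini-Hochberg over all genes tested, threshold 0.05). The titles call the libraries biological replicates and say no more, so a p-value reflects only how far these libraries spread. No 2 libraries of a group agreed within sampling noise (lowest chi-square per degree of freedom 11.0). From centre to bound, the 95% confidence interval for log2 fold changes spanned a median of 0.295 in cortex and 0.222 in hippocampus. Alternatives were DESeq2 1.42.0, limma-voom (limma 3.58.1), RLE and upper-quartile factors, 2 other filters on low counts, each library left out, a replicate block, striatum or choroid plexus markers as a covariate, hippocampus without libraries above 1000 CPM of Ttr, and the groupings by label. The steps were tested on simulated data.

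The members and lists were chosen with earlier results of these data known. Named were the members, all genes of the lists of other synthesis genes, SREBP control and turnover, up to 4 passing genes with the smallest p of each other list (or the 1 with the smallest p), defining cell markers and the 5 most alike genes per tissue. Genes that overlap a member were added. A few genes of these lists are not reported here and were left out of the counts. March6 is named Marchf6 in the cortex table.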

Additional observations from a re-analysis of the deposited data

Results flagged for a closer look

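Among 111 sets of library values (a gene in a group), 9 held a library that stood apart from the rest of its group by Dixon's test, where chance flags about 1 in 20. Members were flagged in hippocampus only: Dhcr7 at 50.3 CPM in the nicotine Sample 8N, with the other nicotine libraries at 38.4 to 40.2 CPM, and Lss at 23.8 CPM in the nicotine Sample 10N, with the others at 29.1 to 31.8 CPM. Saline Sample 2N stood low for March6 (165.9 CPM, others 233 to 244), Rnf145 (65.7 CPM, others 86.6 to 90.8) and Mbtps2 (24.6 CPM, others 30.4 to 33.7), all genes of SREBP control or enzyme turnover, and was among the libraries above 1000 CPM of Ttr. Rnf145 was also low in the nicotine Sample 8N (72.4 CPM, others 82.6 to 88.1) and in the cortex saline Sample 3L (88.7 CPM, others 103.5 to 103.6). Sc5d was high in the saline Sample 4N (83.0 CPM). Fdps in cortex was low in the LPS Sample 2L at 0.312 CPM, with the other LPS libraries at 0.962 to 1.03 CPM.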

How the results depend on the processing

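All 7 members kept their direction after LPS under 17 of 18 alternatives, and 6 of them their call, Sqle between -0.80 and -0.72 and Lss between 0.76 and 0.89 on the log2 scale. The exception was the grouping by title, with 0 genes, 0 members and 0 other synthesis genes called. That grouping turned the sign of Cyp51 (0.036), Dhcr7 (0.038), Acat2 (-0.12), Mvd (0.024), Msmo1 (0.029), Srebf2 (0.11), Stard4 (0), Lcat (0.13), Cyp46a1 (-0.077), Elovl6 (0.10), Fads2 (0.076), Gpr17 (0.12), Ctsb (-0.009), Olig1 (0.005), Sall1 (0.415), Fgfr3 (-0.04), Ntsr2 (0.11), Camk2a (-0.117), C1qa (-0.285), Gja1 (0.049), Rbfox3 (-0.016), Gad1 (0.463), Cldn5 (-0.038), S100a8 (-0.202), Ptprc (-0.07), Drd1 (-0.008) and Ttr (0.019). It mixes both column names in each group by construction. With the 4 libraries whose labels agree, 5 of 12 other synthesis genes were called instead of 9, in a fit with 4 fewer libraries, and Acat2 was at -0.11. The striatum covariate put Acat2 at -0.019 and Drd1, one of its own markers, at -0.165, ended the Mvk call (edgeR adjusted p = 0.053) and made Ppp1r1b pass (1.97e-05). With no filter on low counts Mvk (0.0566) and Npc2 (0.0532) were lost and Ppp1r1b passed (0.00947). Leaving out single libraries gave 5703 to 8481 called genes, 6 to 7 members and 7 to 9 other synthesis genes in cortex, and ranges across 0 for Acat2 (-0.034 to 0.092), Scap (-0.061 to 0.014), Rnf145 (-0.032 to 0.047), Insig1 (-0.047 to 0.179) and Mbp (-0.117 to 0.076). In hippocampus 15 genes were called by DESeq2, 1 without the libraries rich in Ttr, and 0 to 1 with single libraries left out. Sqle there was at 0 by DESeq2, at 0.001 by limma-voom, upper-quartile factors and the replicate block, and between -0.034 and 0.036 with single libraries left out. Without the libraries rich in Ttr, Idi1 was at 0.10, Lss at 0.231 and S100a9 at -0.253, and Kl, a choroid plexus marker, lay between -0.887 and 0.279 with single libraries left out. Idi1 lay between -0.132 and 0.027 with single libraries left out. Mbtps2 passed without LPS Sample 2L (0.247), Mvd without LPS Sample 7L (-0.416) and Srebf1 without saline Sample 6L (0.359). The causes were not tested.

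Libraries with the same replicate number did not all deviate together (r from -0.23 to -0.04 in cortex and from -0.21 to 0.62 in hippocampus), and 0 of 4 LPS and 1 of 6 nicotine libraries correlated best with their own number. A replicate block gave 6064 called genes in cortex and 0 in hippocampus, with 7 and 0 members. It ended the calls of Mvk (edgeR adjusted p = 0.0793), Npc2 (0.0601), Nus1 (0.0919), Camk2a (0.0638), Map2 (0.0662) and Gad1 (0.0596) and no other named call.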
